A study of Rattus norvegicus with 24 samples.

Results

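Liver gene expression was compared between female and male rats of the sham group of a study of inhaled PCB 52, a polychlorinated biphenyl. The comparison holds 12 sham livers of a 24-liver series, 6 from females and 6 from males, chosen by the labels for treatment and sex. All animals were Sprague-Dawley rats, a common outbred laboratory strain, and 1 liver portion per animal was sequenced as RNA. All arrived at 28 days of age, were trained in the nose-only apparatus and ate and drank freely, and females were assigned to sham or exposure at 42 days of age and males at 39 days. The other 12 livers came from rats that then breathed air passed over PCB 52 at 12 L/min, for 4 hours a day over 28 days. What the sham rats breathed, their age at death, the stage of the female cycle and the hour of collection are not given in the sources used here. Each sex came in a count table of its own, so sex, age at the start and any step that differed between the tables cannot be told apart. Genes on the X and Y chromosomes entered the fit but are not described.

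Rat liver is among the most sexually dimorphic organs. Growth hormone reaches it in sharp pulses in adult males and almost continuously in adult females, and this pattern acts through the receptor, JAK2 and STAT5 on sets of male-predominant and female-predominant genes. Steroid-hydroxylating cytochromes P450 are the best known of them: Cyp2c11 is the male-specific testosterone hydroxylase and Cyp2c12 the female-specific steroid sulfate hydroxylase, and both are standard markers of the sex of a rat liver.

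Total counts ran from 6994832 to 8858751 per sham liver, with 12210 to 12434 genes above 0, so 1 count was worth 0.113 to 0.143 counts per 1000000 (CPM). Values below are CPM, given as the lowest, highest and median of the 6 livers of a sex, and where only 2 medians are given the female one comes first. Differences are log2 fold changes of females minus males from edgeR's quasi-likelihood test, with a standard error (SE, after ±), and p-values are adjusted by Benjamini-Hochberg over all genes tested. The p-values rest on spread between animals. The SE is worked back from the size of the difference and its test statistic, so it can be too small where 1 sex was near 0 counts. Akr1b7, for example, is given as 10.87 ± 0.54, and its fitted difference was 14.16 without male replicate 3. Animals were separate, and no label pairs a female with a male. Levels are not divided by transcript length, so CPM are compared between sexes and not between genes.

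Of 9945 autosomal genes tested, 2107 (21.2%) differed between sham females and sham males at an adjusted p under 0.05. Females were higher for 1105 (11.1%) and males for 1002 (10.1%). Counts of called genes in the lists below are to be read beside these shares of all genes. Most differences were small, with a median absolute log2 difference of 0.55 among those genes, and the median over all genes tested was near 0 (-0.005), with 49.3% of them above 0. Large differences were fewer: 74 genes were at least 4-fold higher in females and 84 in males, and 34 and 54 were at least 8-fold higher. For 1147 genes (11.5%) the 6 females and 6 males did not overlap in CPM. Genes higher in females took 18.7% to 19.5% of the counts of each female liver and 10.9% to 11.4% of those of each male liver. Genes higher in males took 22.3% to 22.9% in males and 13.2% to 14.3% in females. With each liver left out in turn, 1584 of the 2107 genes kept their call in all 12 fits.

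**Figure D1:**
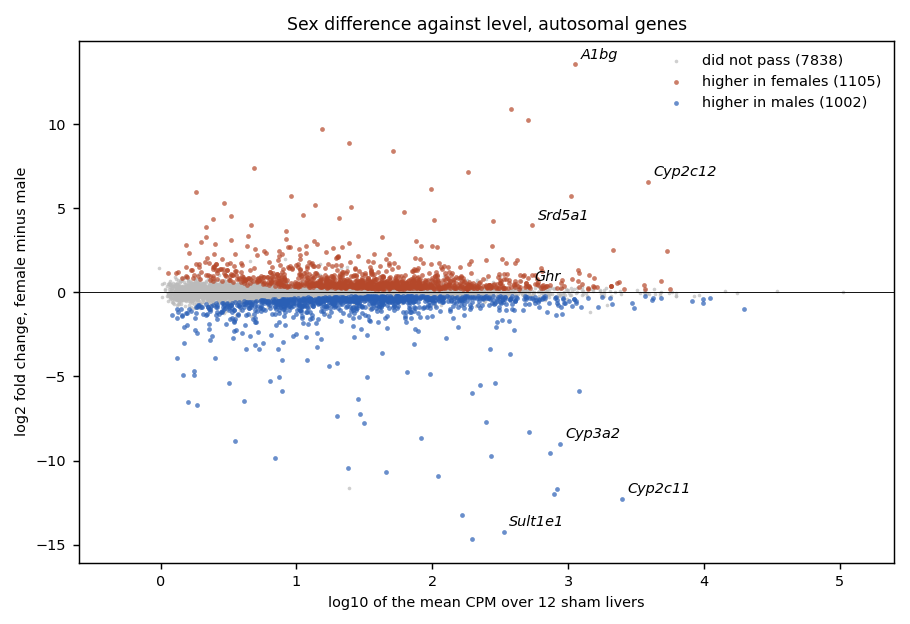
Each point is 1 of 9945 autosomal genes, with the log10 of its mean CPM over the 12 sham livers on the x axis and its log2 difference, females minus males, on the y axis. Red marks the 1105 genes higher in females, blue the 1002 higher in males and grey the rest; the widest differences spread over the whole range of levels.

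The labelled sexes matched their markers in every sham liver. Cyp2c12 (gene ID 25011) ran from 6758 to 8752 CPM (median 7402) in females and from 27.7 to 143 CPM (median 80.4) in males, a log2 difference of 6.57 ± 0.38 (adjusted p = 2.44e-07). Cyp2c11 (gene ID 29277) ran from 0.113 to 2.89 CPM (median 0.776) in females and from 4666 to 5337 CPM (median 4881) in males, a difference of -12.26 ± 0.39 (adjusted p = 2.30e-10, and -12.87 without female replicate 5). No female reached the male range of either gene and no male the female range. Traces of Cyp2c11 were present in all 6 females, while Cyp2c12 stayed well above 1 count in all 6 males.

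Both genes belong to the Cyp2c cluster, a group of related genes in 1 region of chromosome 1 whose members differ in sex pattern. The 250 bases before the RefSeq start of 4 of them are shown, in GRCr8 coordinates and on the gene's own strand, because these relatives went in opposite directions. Capitals mark ATCAAT on either strand, the letters searched for the liver factor HNF6. The bases upstream of Cyp2c12 are chr1:248677035-248677284 on the minus strand, of Cyp2c7 chr1:247966144-247966393 on the plus strand, of Cyp2c11 chr1:246174966-246175215 on the plus strand and of Cyp2c13 chr1:248787189-248787438 on the minus strand.
Cyp2c12: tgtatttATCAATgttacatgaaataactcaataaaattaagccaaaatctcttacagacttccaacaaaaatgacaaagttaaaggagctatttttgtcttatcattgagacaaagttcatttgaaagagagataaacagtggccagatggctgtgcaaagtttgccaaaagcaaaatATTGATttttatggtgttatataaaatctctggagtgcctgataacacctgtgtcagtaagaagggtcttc
Cyp2c7: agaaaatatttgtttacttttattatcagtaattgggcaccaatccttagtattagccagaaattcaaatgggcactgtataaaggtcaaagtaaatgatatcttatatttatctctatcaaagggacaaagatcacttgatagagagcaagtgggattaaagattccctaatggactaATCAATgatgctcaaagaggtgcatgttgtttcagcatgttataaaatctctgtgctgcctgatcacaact
Cyp2c11: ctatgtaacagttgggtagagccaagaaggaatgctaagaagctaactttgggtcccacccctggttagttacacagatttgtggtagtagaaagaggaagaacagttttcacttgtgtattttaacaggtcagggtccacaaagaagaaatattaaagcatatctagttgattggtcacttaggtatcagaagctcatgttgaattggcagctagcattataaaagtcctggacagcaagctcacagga
Cyp2c13: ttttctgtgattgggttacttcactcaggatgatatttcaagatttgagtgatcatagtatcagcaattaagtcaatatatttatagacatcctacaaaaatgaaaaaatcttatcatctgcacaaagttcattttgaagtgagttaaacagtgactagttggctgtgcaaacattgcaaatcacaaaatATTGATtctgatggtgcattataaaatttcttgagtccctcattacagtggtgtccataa
Cyp2c12 and Cyp2c7, both higher in females, each held a match whose first base lay 71 bases before the start, on opposite strands, and Cyp2c12 held another at 243. Cyp2c13, higher in males, held 1 at 60, and Cyp2c11 held none. Among the 8200 autosomal genes tested with a RefSeq promoter, 277 (3.38%) held ATCAAT in this window. The shares were 6 of 62 (9.68%) for genes at least 4-fold higher in females and 7 of 65 (10.8%) for those at least 4-fold higher in males. TTCNNNGAA, the letters searched for STAT5, was in 6.06% of all windows, 11.3% of the first group and 6.15% of the second. It was in none of the 4 windows shown. At 2-fold or more the shares were 5.03% in females and 8.19% in males for ATCAAT, and 6.53% and 7.02% for TTCNNNGAA. Letters searched for the liver factors HNF4 and C/EBP were also more frequent in both 4-fold groups. CAAAG (HNF4) was in 42.4% of all windows, 54.8% of the first group and 58.5% of the second. TTNNGCAA (C/EBP) was in 7.77%, 19.4% and 15.4% in that order. The higher share was thus not particular to ATCAAT.

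The other hormone-patterned P450s split by sex as their textbook names have it, on lists drawn up with earlier results of these data known. All 5 listed female-predominant P450s were higher in females. Cyp2c7, a retinoid-hydroxylating enzyme, ran from 8137 to 10215 CPM (median 9152) in females and 1234 to 1865 CPM (median 1658) in males (2.46 ± 0.10, adjusted p = 8.21e-13). Cyp2a1, a steroid 7-alpha hydroxylase, stood at medians of 504 and 131 CPM (1.99 ± 0.13), Cyp3a9 at 194 and 23.5 CPM (2.73 ± 0.28) and Cyp17a1, the androgen-forming lyase, at 47.9 and 14.7 CPM (1.79 ± 0.31). In these 4 genes too the sexes did not overlap, and the males kept a clear level of each.

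All 6 tested male-predominant P450s were higher in males. Cyp2c13 ran from 0.129 to 0.683 CPM (median 0.582) in females and 1494 to 1806 CPM (median 1633) in males (-11.69 ± 0.17, adjusted p = 8.50e-20). Cyp3a2, a testosterone 6-beta hydroxylase, ran from 1.69 to 5.14 CPM (median 3.46) in females and 1496 to 1962 CPM (median 1726) in males (-9.003 ± 0.18, adjusted p = 1.55e-16). Cyp2a2, a testosterone 15-alpha hydroxylase, ran from 0.452 to 7.78 CPM (median 1.31) and 444 to 563 CPM (median 478) in the same order (-7.74 ± 0.47, adjusted p = 3.88e-07, and -8.57 without female replicate 5). No female came near the male range of these 3 genes. Cyp3a18 (49.9 and 479.7 CPM, -3.39 ± 0.23) and Cyp2c22 (408 and 717 CPM, -0.86 ± 0.23) were graded rather than on or off. Cyp4a2 was too low to test: its 20 counts in the male group and 3 in the female group gave a ratio of 7.20 (95% exact interval 2.14 to 37.9, counting error only). Over families 1 to 4, 20 of 42 P450s were higher in males, 11 in females and 11 did not pass. Cyp2c, Cyp2a and Cyp3a genes are close in sequence, so reads could have been shared among them. Of 14 other genes that are female-predominant by textbook 12 were higher in females and 0 in males. Of 12 other male-predominant ones 9 were higher in males and 1, the fasting hormone Fgf21, in females, a call that held with all 12 livers or without female replicate 3, male replicate 3 or male replicate 5 and was lost without any other liver.

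The genes with the largest differences in each direction were mostly not P450s. In females they were led by A1bg, a plasma protein of the immunoglobulin superfamily, at 1508 to 3469 CPM (median 2055) against 0 to 0.858 CPM (median 0.0615) in males (13.54 ± 0.50, adjusted p = 1.81e-09). Without male replicate 6, the highest male, the fitted difference was 15.05. Akr1b7, an aldose reductase-like enzyme, ran from 466 to 877 CPM (median 804) in females and 0 to 2.21 CPM (median 0) in males (10.87 ± 0.54), where male replicate 3 held all but 1 of the counts of the 6 males and without which the fitted difference was 14.16. Sult2a2, a hydroxysteroid sulfotransferase, ran from 8.08 to 1716 CPM (median 1232) in females and 0.123 to 2.60 CPM (median 0.388) in males (10.22 ± 1.31, adjusted p = 2.24e-04, and 11.02 without male replicate 3). Its lowest female, replicate 1 at 8.08 CPM, was still above every male, while the other 5 females lay between 508 and 1716 CPM.

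Prlr, the prolactin receptor, ran from 290.3 to 534 CPM (median 331.5) in females and 0.984 to 4.30 CPM (median 2.62) in males (7.13 ± 0.32, adjusted p = 6.33e-09). Cux2, a homeobox repressor of male-type genes in liver, ran from 64.5 to 259 CPM (median 208) in females and 1.29 to 6.89 CPM (median 1.69) in males (6.15 ± 0.49, adjusted p = 4.57e-06). Adh6, an alcohol dehydrogenase, ran from 31.2 to 63.3 CPM (median 48.8) and 0 to 0.130 CPM (median 0.123) in that order (8.90 ± 0.31). The sexes lay far apart in all 3. Nptx2, a pentraxin, varied widely among females, from 1.36 to 39.1 CPM (median 14.9), over males at 0 to 0.858 CPM (median 0.257). Krt23, a type I keratin, and Cadps, a secretory vesicle protein, were low in females (medians 8.52 and 3.62 CPM). Each had 2 counts in the whole male group, which gave ratios of 230 (63.3 to 1904) and 84.7 (23.1 to 705).

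Cpa1, a carboxypeptidase best known from the exocrine pancreas, was also among them. It ran from 68.9 to 123 CPM (median 103) in females and 0 to 1.14 CPM (median 0.184) in males (8.43 ± 0.36, adjusted p = 9.98e-10, and 9.48 without male replicate 6). All 6 females were high. Among further genes of the exocrine pancreas Prss1, Cela3b, Amy2a3, Pnlip and Clps had 0 counts in both sexes, Ctrb1 had 2 in females and 1 in males, and Cela1 was higher in males (medians 5.99 and 22.1 CPM, -1.85 ± 0.17).

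In males the list held a different set of functions. Sult1e1, the estrogen sulfotransferase, had 1 count in the 6 females together and ran from 589 to 852 CPM (median 644) in males, a ratio of 33887 (6082 to 1.34e+06). Slc22a8, the organic anion transporter OAT3, likewise had 1 count in females and ran from 256 to 363 CPM (median 340.8) in males (16593, interval 2978 to 6.55e+05). Nox4, an NADPH oxidase, had 1 count in females and ran from 40.7 to 56.8 CPM (median 47.6) in males (2439, interval 437 to 9.64e+04). These genes were all but absent in females at this depth and present in every male.

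Hsd3b5, a male-type hydroxysteroid dehydrogenase that reduces steroids, ran from 0 to 0.878 CPM (median 0.354) in females and 1389 to 1763 CPM (median 1607) in males (-12.00 ± 0.28, adjusted p = 6.46e-14). Ust5r, an organic anion transporter-like protein, ran from 0 to 0.228 CPM (median 0.0596) and 195 to 228 CPM (median 225) in that order (-10.93 ± 0.20), and Dhrs7l1, a short-chain dehydrogenase, from 0 to 1.76 CPM (median 0.453) and 443 to 705 CPM (median 484) (-9.73 ± 0.35). The sexes were again far apart.

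Major urinary proteins, which carry volatile pheromones in urine, were at or near 0 counts in females. Mup4l1 had 0 counts in the female group and ran from 267 to 596 CPM (median 350.4) in males, at least 6582-fold higher against a floor of 3 counts over the group. Mup5 and Mup4 also had 0 counts in females and male medians of 9.40 and 9.53 CPM, and Mup4l4 had 2 female counts (ratio 2292, interval 634 to 1.89e+04). Obp3, an odorant-binding relative, had 0 counts in females and 0.368 to 110.8 CPM in males. It did not pass the filter on low counts, with males 2, 5 and 6 at 24.5, 73.9 and 110.8 CPM and the other 3 under 3 CPM. These genes are near-copies of each other, so the split of reads among them is uncertain.

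**Figure D2:**
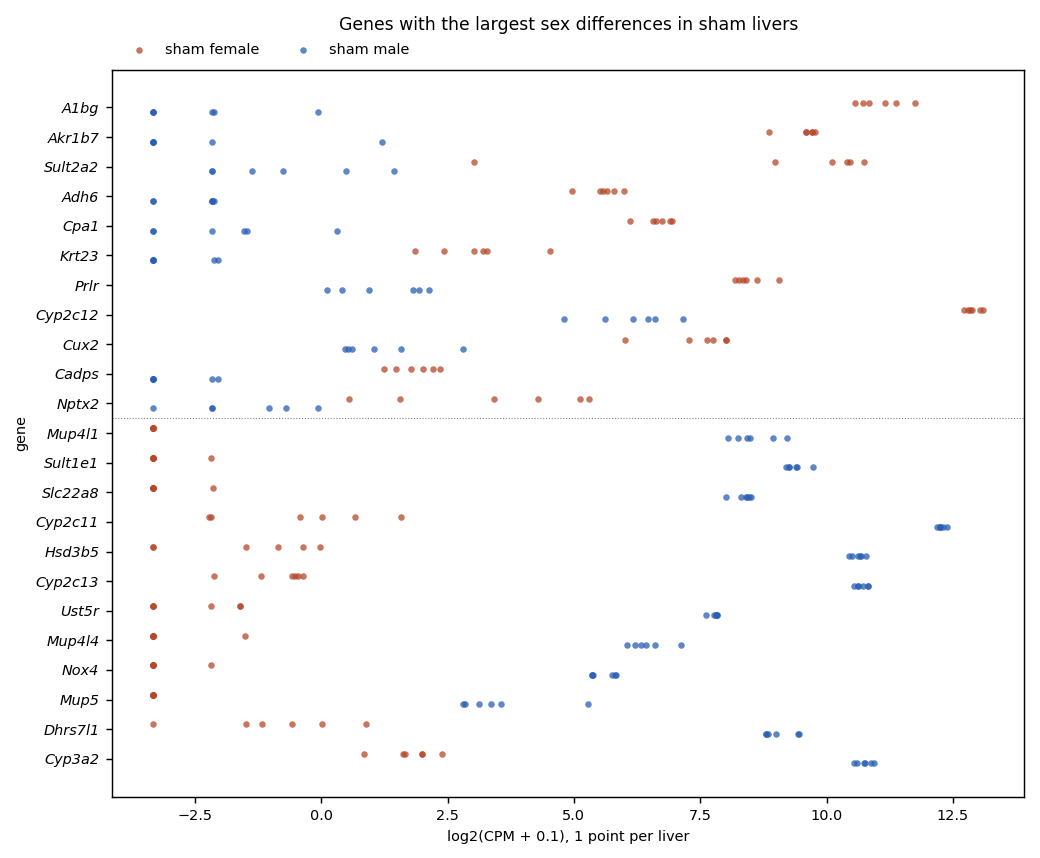
Autosomal genes with the largest log2 difference in each direction, 11 for females and 12 for males, above 1 CPM on average and without overlap between the sexes, with log2(CPM + 0.1) on the x axis. Each point is 1 of 12 sham livers, red for females and blue for males; points at the far left are livers with 0 counts.

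Sulfotransferases split by subfamily. Hydroxysteroid sulfotransferases of subfamily 2a were higher in females: Sult2a6 ran from 1961 to 2140 CPM (median 2038) in females and 17.96 to 51.2 CPM (median 41.9) in males (5.71 ± 0.24, adjusted p = 9.31e-10), and Sult2a1 stood at medians of 3655 and 684 CPM (2.54 ± 0.24). Besides Sult1e1, the family 1 members Sult1c3 and Sult1a1, a phenol sulfotransferase, were higher in males, with Sult1c3 running from 2.38 to 15.7 CPM (median 4.83) in females and 363 to 399 CPM (median 386) in males (-5.98 ± 0.37) and Sult1a1 at medians of 287 and 448 CPM (-0.68 ± 0.14). In all, 3 of 10 tested family members were higher in females, 3 in males and 4 did not pass. Sult1a1 overlapped between the sexes and the others did not.

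Glutathione transferases were higher in males for 11 of 23 tested members and in females for 6. Gstm1, of the mu class, ran from 426 to 504 CPM (median 469) in females and 954 to 1345 CPM (median 1162) in males (-1.34 ± 0.10, adjusted p = 4.48e-09), and Gstm2 stood at 421 and 983 CPM (-1.16 ± 0.09). The alpha class went the other way for Gsta1 (1360 and 752 CPM, 0.81 ± 0.09) and Gsta3 (32.1 and 7.55 CPM, 2.12 ± 0.27). In all 4 genes the sexes did not overlap.

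Flavin monooxygenases oxidise nitrogen and sulfur in drugs. Fmo1 ran from 42.9 to 86.3 CPM (median 61.0) in females and 214 to 299 CPM (median 246) in males (-2.08 ± 0.15, adjusted p = 2.39e-08). Fmo2 and Fmo4 were also higher in males (-0.95 and -0.53), whereas Fmo5 was higher in females (406 and 260.5 CPM, 0.66 ± 0.10). Carboxylesterases, which cut ester drugs and lipids, were split 4 and 4 among 9 tested. Ces2e ran from 468 to 526 CPM (median 476) in females and 45.5 to 95.8 CPM (median 69.1) in males (2.77 ± 0.14), and Ces1c stood at 1149 and 2141 CPM (-0.89 ± 0.08). Glucuronosyltransferases were split 3 and 3 among 12, with Ugt2b10 higher in females (149 and 48.2 CPM, 1.66 ± 0.13) and Ugt1a6 in males (9.29 and 22.4 CPM, -1.12 ± 0.11).

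Of 17 aldo-keto reductases 7 were higher in males and 4 in females. Akr1c12 ran from 5.49 to 15.4 CPM (median 10.01) in females and 411 to 485 CPM (median 439) in males (-5.49 ± 0.22, adjusted p = 3.30e-10), and Akr1c1 (-5.05), Akr1c2 (-5.86) and Akr1c3 (-6.44) showed the same direction, each under 4 CPM in every female. Akr1c14, the rat 3-alpha hydroxysteroid dehydrogenase, was higher in females (2009 and 1110 CPM, 0.84 ± 0.07). Akr1c genes are near-copies, and their reads may be split between them. Of 21 alcohol and aldehyde dehydrogenases 8 were higher in females and 4 in males. Adh4 stood at 51.9 and 22.5 CPM (1.11 ± 0.09), Adh1c, the main ethanol-oxidising form, at 1618 and 762 CPM (1.17 ± 0.16), Adh5 at 183 and 104.6 CPM (0.81 ± 0.07) and Adh7 at 21.99 and 12.8 CPM (0.91 ± 0.18). All of them were without overlap.

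Among xenobiotic receptors, Nr1i3, which encodes CAR, the constitutive androstane receptor, ran from 18.8 to 36.8 CPM (median 29.5) in females and 78.6 to 174 CPM (median 114) in males (-2.17 ± 0.23, adjusted p = 1.75e-05). Cyp2b1, its classic target, ran from 0.477 to 1.48 CPM (median 0.841) in females and 4.17 to 29.3 CPM (median 13.02) in males (-4.04 ± 0.46, adjusted p = 2.63e-05). Both were higher in all 6 males than in any female. The receptor list as a whole, with PXR, partners and targets, was split: 6 of 18 were higher in females, 5 in males and 7 did not pass. Abcb1a, the drug efflux pump P-glycoprotein, was among those higher in females (74.2 and 26.8 CPM, 1.39 ± 0.12). Nqo1, a quinone reductase under AhR and Nrf2, ran from 18.3 to 23.4 CPM (median 22.4) in females and 6.40 to 8.59 CPM (median 6.88) in males (1.55 ± 0.11, adjusted p = 3.90e-09). In the Nrf2 list 4 of 14 were higher in females and 2 in males, with Pgd of the pentose phosphate path higher in females (139 and 60.4 CPM, 1.23 ± 0.14) and Gclm, a glutathione synthesis subunit, higher in males (82.6 and 176 CPM, -1.12 ± 0.14).

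ABC transporters, most of them efflux pumps, were higher in females for 11 of 37 tested and in males for 4. Abcc3, which returns bile acids and glucuronides to blood, ran from 25.0 to 53.3 CPM (median 28.4) in females and 3.52 to 6.38 CPM (median 5.52) in males (2.60 ± 0.20, adjusted p = 5.07e-08). Abcd2, a peroxisomal fatty acid transporter, stood at 9.35 and 1.77 CPM (2.35 ± 0.20), Abcg2, the breast cancer resistance protein, at 29.0 and 14.1 CPM (1.10 ± 0.18) and Abcb4, the canalicular phospholipid flippase, at 188 and 108 CPM (0.87 ± 0.14). No male reached a female in these 4 pumps. Abcc9, a subunit of a potassium channel, was higher in males (9.60 and 22.2 CPM, -1.31 ± 0.15).

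Organic ion carriers of the Slc22 family had 4 of 10 higher in males and 2 in females (1 without female replicate 1, 2 or 4 or male replicate 3). Slc22a4 stood at 1.17 and 5.53 CPM (-2.28 ± 0.22), and Slc22a25 had 1 count in females against 147 in males (ratio 159, interval 28.1 to 6315). Slc22a5, the carnitine transporter OCTN2, was higher in females, at 55.8 to 102 CPM (median 70.7) against 13.03 to 28.9 CPM (median 21.4) (1.76 ± 0.17, adjusted p = 1.71e-06). Slc22a7 (OAT2), a female-predominant gene by textbook, stood at 142 and 134 CPM and did not pass (0.13 ± 0.09, adjusted p = 0.376). Among organic anion transporting polypeptides Slco1b2 was modestly higher in females (905.6 to 1294 CPM, against 669.8 to 895 CPM, 0.38 ± 0.09). Slco1a1, male-predominant by textbook, overlapped between the sexes at 264 to 380.2 CPM (median 315) in females and 358 to 397 CPM (median 368) in males (-0.27 ± 0.08, adjusted p = 0.017). Its call was lost when all 24 livers were fitted together (adjusted p = 0.102, over alternatives from 0.00305 to 0.102). Slc13a5, the citrate importer, was higher in males (1.45 and 14.2 CPM, -2.98 ± 0.22), and Slc17a3, a urate and phosphate carrier, in females (169 and 83.6 CPM, 0.98 ± 0.10).

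The growth hormone axis itself held mostly small differences among its receptors and signal transducers. Ghr, the growth hormone receptor, ran from 536 to 725 CPM (median 562) in females and 392 to 524 CPM (median 446) in males (0.37 ± 0.10, adjusted p = 0.00777), without overlap. Stat3 was higher in females (175 and 103 CPM, 0.69 ± 0.16). Stat5b, the main transducer of the male pulse, stood at 28.4 to 33.98 CPM (median 32.3) in females and 25.4 to 41.1 CPM (median 31.3) in males and did not pass (-0.03 ± 0.12, adjusted p = 0.905), and neither did the feedback inhibitors Socs2 (0.09 ± 0.39) and Socs3 (1.07 ± 0.46). Stat5b and Socs2 were chosen after their values were seen. In this list of 14, 3 were higher in females and 2 in males (1 without female replicate 2 or 6 or male replicate 1 or 4). Both directions together made 35.7% of the list, where 21.2% of all genes were called. Apart from Prlr, described above, every passing difference was under 2-fold.

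Its transcription factors showed a few wide gaps. Tox, an HMG-box factor, ran from 5.42 to 6.08 CPM (median 5.72) in females and 0 to 0.369 CPM (median 0.130) in males (5.29 ± 0.34, adjusted p = 9.66e-10, and 5.92 without male replicate 5), and Trim24, a nuclear receptor cofactor, from 26.9 to 161 CPM (median 128) and 3.52 to 5.72 CPM (median 3.94) (4.78 ± 0.42, adjusted p = 1.02e-05). Both were higher in every female. Nfil3, a bZIP repressor, was also higher in females (64.2 and 16.5 CPM, 1.55 ± 0.20), while Foxa1 (-0.92) and Foxa3 (-0.54) were higher in males. Bcl6, a repressor of female-type genes, stood at 33.8 to 43.5 CPM (median 36.0) in females and 11.8 to 135 CPM (median 24.7) in males and did not pass (-0.28 ± 0.56, adjusted p = 0.791). Male replicate 1, at 135 CPM, set its sign: without it the difference was 0.51 (adjusted p = 0.359, over all alternatives from 0.359 to 0.863). Onecut1, which encodes HNF6 and was chosen after its values were seen, varied widely in both sexes, from 12.7 to 178 CPM (median 84.3) in females and 5.03 to 139 CPM (median 42.9) in males (0.73 ± 0.74, adjusted p = 0.561). In this list of 18, 4 were higher in females, 3 in males and 11 did not pass.

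Igf1, the growth factor that liver releases under growth hormone, ran from 489 to 644 CPM (median 556) in females and 569.6 to 748 CPM (median 642) in males and missed the threshold (-0.24 ± 0.09, adjusted p = 0.0793). Without female replicate 1 it passed, at -0.30 (adjusted p = 0.0210, over all alternatives from 0.0175 to 0.182). Of the IGF-binding proteins 2 were higher in females: Igfbp1 at 229.5 to 544 CPM (median 387) against 43.0 to 146 CPM (median 96.2) (1.94 ± 0.30, adjusted p = 6.65e-04), without overlap, and Igfbp2 at medians of 15.8 and 2.95 CPM (2.31 ± 0.54, and 2.92 without male replicate 1), with overlap. The other 6 tested members of the list did not pass.

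Steroid-converting enzymes leaned to males, with 13 of 23 tested higher there, 4 higher in females and a median difference of -0.47. Srd5a1, the steroid 5-alpha reductase, was higher in females, at 828 to 1343 CPM (median 1005) in females and 43.9 to 81.1 CPM (median 61.9) in males (4.00 ± 0.18, adjusted p = 2.85e-10). Hsd11b1, which regenerates active glucocorticoid, ran from 36.0 to 84.1 CPM (median 52.7) in females and 629.9 to 748 CPM (median 703) in males (-3.65 ± 0.18, adjusted p = 2.23e-09). The sexes were separated by a wide gap in both. Hsd17b2, which inactivates estradiol and testosterone, stood at 572 and 824 CPM and missed the threshold (-0.47 ± 0.16, adjusted p = 0.058). It passed without female replicate 4 (-0.60, adjusted p = 0.00559) or male replicate 1 (-0.54, adjusted p = 0.0226), with 0.00559 to 0.120 over all alternatives. Esr1, the estrogen receptor of liver, ran from 8.41 to 19.8 CPM (median 14.2) in females and 9.22 to 14.3 CPM (median 11.4) in males (0.30 ± 0.16, adjusted p = 0.206), and passed without female replicate 5 (0.41, adjusted p = 0.0313, over all alternatives from 0.0313 to 0.428). Among other nuclear receptors the retinoid receptors Rarb (39.0 and 14.8 CPM, 1.41 ± 0.10) and Rxrg (48.5 and 23.2 CPM, 1.06 ± 0.10) were higher in females, and 19 of 24 did not pass.

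Of 16 genes of thyroid hormone handling and response 3 were higher in females and 4 in males, and of 23 hormones and binding proteins secreted by liver 6 and 5. Crym, a cytosolic thyroid hormone binder, ran from 8.23 to 13.8 CPM (median 10.8) in females and 40.9 to 54.9 CPM (median 50.2) in males (-2.17 ± 0.11, adjusted p = 4.93e-11), and Dio1, the deiodinase that activates thyroxine, stood at 111 and 173 CPM (-0.61 ± 0.13). Slc16a10, a transporter of aromatic amino acids and thyroid hormone, was higher in females (53.3 and 31.2 CPM, 0.88 ± 0.20), and so was Thrsp, a thyroid hormone-responsive gene of lipid synthesis (1399 and 919 CPM, 0.68 ± 0.19), a call lost without female replicate 1 (0.63, adjusted p = 0.0529, against 0.00128 to 0.0401 under the other alternatives). Gdf15, a stress hormone, ran from 8.41 to 22.1 CPM (median 14.7) in females and 0.572 to 3.19 CPM (median 1.48) in males (3.16 ± 0.40, adjusted p = 6.82e-05). Serpina6, the corticosteroid-binding globulin, stood at 668 and 358 CPM (1.02 ± 0.15), and Gc, the vitamin D-binding protein, at 8332 and 11082 CPM (-0.41 ± 0.07). Among further secreted proteins Afm, which binds vitamin E, was higher in males (-0.83), and Bche, a cholinesterase, and Lect2, a hepatokine, were higher in females (1.60 and 0.72). Of 16 glucocorticoid-responsive genes 6 were higher in females and 0 in males, among them Mt1 (0.62), Angptl4 (0.84) and Gadd45b (1.53). In insulin signalling Irs2 (0.65) and Akt2 (0.53) were higher in females and Pde3b (-0.48) in males, of 18 tested.

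Lipid synthesis leaned to females. Of 18 tested genes of fatty acid synthesis 12 were higher in females and 0 in males (median difference 1.00), and of 25 genes of cholesterol synthesis and the SREBP2 pathway 16 and 0 (median 0.71), where 11.1% of all genes were higher in females. Leaving out 1 liver at a time gave 11 to 13 and 13 to 18. Elovl6, an elongase of saturated fatty acids, ran from 42.3 to 111 CPM (median 76.2) in females and 4.31 to 19.1 CPM (median 5.76) in males (3.30 ± 0.38, adjusted p = 8.23e-05), with male replicate 4 the highest male. Acacb, an acetyl-CoA carboxylase, ran from 144 to 235 CPM (median 193) and 53.0 to 87.5 CPM (median 65.8) in that order (2.83-fold, adjusted p = 6.65e-07). The desaturases Fads1 (933 and 381 CPM, 1.28 ± 0.14) and Fads2 (926 and 351 CPM, 1.42 ± 0.14), the elongase Elovl2 (170.4 and 75.1 CPM, 1.13 ± 0.11) and malic enzyme Me1 (64.2 and 33.9 CPM, 0.89 ± 0.12) were also higher in every female than in any male. Chosen after their values were seen, Fasn, the fatty acid synthase, stood at 654 and 274 CPM (1.01 ± 0.25, adjusted p = 0.0134), while the regulator Srebf1 (0.14 ± 0.15, adjusted p = 0.593) and the desaturase Scd (0.15 ± 0.34, adjusted p = 0.824) did not pass.

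In the cholesterol path Fdps, the farnesyl diphosphate synthase, ran from 538 to 781 CPM (median 688) in females and 121 to 246 CPM (median 167) in males (1.91 ± 0.16, adjusted p = 2.89e-07). Tm7sf2, a sterol reductase, ran from 256 to 349.9 CPM (median 279) in females and 67.5 to 109 CPM (median 89.3) in males (1.70 ± 0.11, adjusted p = 9.66e-10). Neither overlapped between the sexes. Cyp51 (1.07), Dhcr7 (0.97), Pmvk (0.84) and Sc5d (0.71), further steps of the same path, were higher in females without overlap. Summed over the list, cholesterol genes took 4405 to 6414 CPM in females and 1901 to 3483 CPM in males. The fatty acid list summed to 6151 to 10348 CPM in females and 4687 to 6584 CPM in males, where female replicate 2 was the only female inside the male range.

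**Figure D3:**
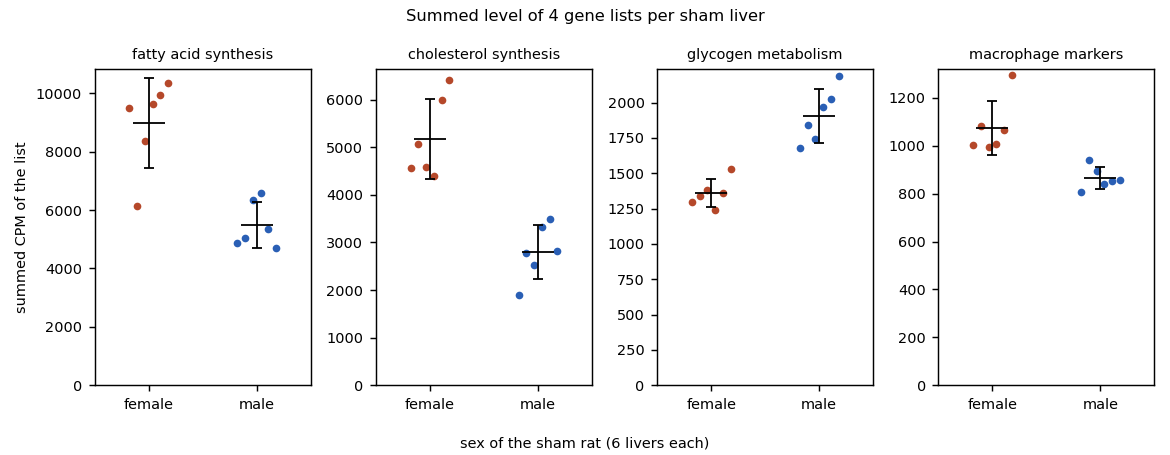
Summed CPM of 4 gene lists in each sham liver, with red points for females, blue points for males, and bars for the mean and SD of 6 livers. Cholesterol synthesis, glycogen metabolism and macrophage markers did not overlap between the sexes, and in fatty acid synthesis female replicate 2 lay among the males.

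Triglyceride handling followed, with 9 of 22 higher in females and 3 in males. Cd36, a fatty acid translocase, ran from 116 CPM upward (median 166 CPM) in females and 8.22 to 13.2 CPM (median 9.47) in males (4.28 ± 0.29, adjusted p = 5.67e-07). Mttp, which loads lipid onto apolipoprotein B, stood at 499.7 and 215 CPM (1.11 ± 0.09), Dgat2, the last step of triglyceride synthesis, at 762 and 369.8 CPM (1.00 ± 0.09), the fatty acid binder Fabp1 at 1854 and 892 CPM (1.04 ± 0.11) and the droplet coat Plin2 at 195 and 89.4 CPM (1.14 ± 0.12). None of the 5 overlapped. The esterase Ces1d was higher in males (-1.92). Fatty acid oxidation and PPAR alpha targets were called in both directions, 15 of 41 in females and 10 in males. Cyp4a1, an omega hydroxylase, ran from 264 to 353 CPM (median 300.3) in females and 54.7 to 102 CPM (median 82.5) in males (1.87 ± 0.13, adjusted p = 1.22e-08), and Crat (1.73), Acot2 (1.22), Acot4 (1.51) and Ehhadh (0.77) were higher in females as well. Hao2, a peroxisomal hydroxyacid oxidase, went the other way, at 9.09 to 22.3 CPM (median 12.9) in females and 472 to 646 CPM (median 547) in males (-5.40 ± 0.20, adjusted p = 5.54e-11).

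Bile acid genes leaned to males, 6 of 19 against 2. Akr1d1, the steroid 5-beta reductase, ran from 434 to 601 CPM (median 517) in females and 861 to 1975 CPM (median 1218) in males (-1.31 ± 0.17, adjusted p = 5.51e-05), and Hsd3b7 (-1.01), Baat (-0.85) and Amacr (-0.67) followed. Cyp27a1, the sterol 27-hydroxylase, was higher in females (570.4 and 389.7 CPM, 0.53 ± 0.08). The rate-limiting Cyp7a1, chosen after its values were seen, ran from 152 to 461 CPM (median 337) in females and 84.0 to 299.8 CPM (median 172) in males and did not pass (0.78 ± 0.35, adjusted p = 0.151). Among apolipoproteins, of which 7 of 26 were higher in females and 6 in males, Apon (-1.51) and Apoa4 (-0.62) were higher in males.

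Glycogen metabolism leaned to males. All 6 called genes of glycogen metabolism, of 11 tested, were higher in males (median -0.33, 4 to 6 with a liver left out), and the list summed to 1240 to 1530 CPM in females and 1677 to 2188 CPM in males. Ugp2, which makes UDP-glucose, stood at 242 and 533 CPM (-1.06 ± 0.17), Gbe1, the branching enzyme, at 151 and 205 CPM (-0.51 ± 0.08) and Pygl, the phosphorylase, at 289.7 and 394 CPM (-0.43 ± 0.09). Of these Ugp2 overlapped between the sexes. In gluconeogenesis 6 of 18 were higher in males and 3 in females, among them Sds, serine dehydratase, at 75.7 to 222 CPM (median 129.7) in females and 374 to 974 CPM (median 589.7) in males (-2.22 ± 0.30, adjusted p = 2.69e-04). Slc37a4, the glucose-6-phosphate carrier, was modestly higher in males (-0.45) and Creb3l3, a fasting regulator, in females (0.55). Of 22 genes of glucose, fructose and galactose use 5 were higher in females (3 without male replicate 3) and 15 did not pass. Pdk4, which shuts pyruvate out of oxidation, ran from 104.6 to 314 CPM (median 169) in females and 17.1 to 37.5 CPM (median 29.9) in males (2.71 ± 0.32, adjusted p = 8.04e-05).

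Of 33 genes of the urea cycle and amino acid breakdown 10 were higher in males and 5 in females. Asl, argininosuccinate lyase, was higher in females (663 and 358.6 CPM, 0.85 ± 0.11). Csad, which makes hypotaurine, ran from 68.6 to 185 CPM (median 104) in females and 318 to 546 CPM (median 509) in males (-2.04 ± 0.25, adjusted p = 9.10e-05). Gnmt (-0.70) and Chdh (-0.78), both in methyl group turnover, were also higher in males, while Sqor, a sulfide oxidase, was higher in females (1.09). Among cofactor genes Naprt, of NAD synthesis, ran from 144 to 193 CPM (median 174) in females and 51.0 to 65.4 CPM (median 59.4) in males (1.502 ± 0.10, adjusted p = 9.66e-10). Of the retinoid enzymes Rdh16 was higher in males (126 and 455 CPM, -1.77 ± 0.12) and Cyp26a1, which degrades retinoic acid, in females (7.02 and 1.08 CPM, 2.73 ± 0.37).

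Iron handling had 10 of 25 genes higher in females and 3 in males. Slc40a1, the iron exporter ferroportin, ran from 355 to 451 CPM (median 383) in females and 203 to 252 CPM (median 233) in males (0.75 ± 0.08, adjusted p = 7.50e-07), and Tfr2 (0.51) and Tmprss6 (0.47), which act on hepcidin control, were higher in females too. Hamp, hepcidin itself, ran from 533 to 793 CPM (median 692) in females and 432 to 696 CPM (median 524) in males and did not pass (0.34 ± 0.13, adjusted p = 0.0649). It passed without female replicate 6 (0.41, adjusted p = 0.0150) or male replicate 5 (0.43, adjusted p = 0.0138), and over all alternatives the adjusted p ran from 0.0109 to 0.143. Hfe, a partner of Tfr2, was higher in males, at 14.8 to 22.9 CPM (median 18.1) in females and 39.6 to 53.0 CPM (median 44.3) in males (-1.32 ± 0.11, adjusted p = 3.68e-08). Of these Hamp alone overlapped between the sexes. Among antioxidant enzymes Gpx1 was higher in females (1692 and 662 CPM, 1.33 ± 0.14) and Cat, catalase, in males (2275 and 3809 CPM, -0.66 ± 0.10). Car3, a carbonic anhydrase long known from male rat liver, ran from 16.6 to 91.2 CPM (median 32.2) in females and 1975 to 2955 CPM (median 2249) in males (-5.87 ± 0.44, adjusted p = 2.88e-06).

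Secreted plasma proteins also differed. Of 40 complement and coagulation genes 11 were higher in females and 3 in males (5 without female replicate 1). C6, of the membrane attack complex, stood at 260.5 and 121 CPM (1.12 ± 0.18), F7, coagulation factor VII, at 142 and 71.9 CPM (1.00 ± 0.12) and C4b at 93.2 and 51.1 CPM (0.84 ± 0.12). Acute phase proteins were split 6 and 6 of 23: A2m ran from 5.84 to 15.1 CPM (median 8.36) in females and 31.9 to 102 CPM (median 52.2) in males (-2.56 ± 0.34, adjusted p = 2.26e-04), Hp, haptoglobin, stood at 6858 and 9431 CPM (-0.50 ± 0.08) and Itih4 at 6010 and 3666 CPM (0.67 ± 0.09). Serpins were higher in males for 7 of 23 and in females for 5. Serpinb9b, a granzyme inhibitor-like serpin, ran from 33.9 to 67.9 CPM (median 49.2) in females and 0.492 to 2.60 CPM (median 1.19) in males (5.07 ± 0.29, adjusted p = 1.57e-08), and Serpina1, alpha-1 antitrypsin, was higher in males (7601 and 11798 CPM, -0.64 ± 0.08). No liver crossed between the sexes in A2m, Hp, Itih4 or these serpins.

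Markers of other liver cells came from whole tissue, where fewer cells of a type and less RNA per cell cannot be told apart. Of 16 tested Kupffer cell and macrophage markers 7 were higher in females and 1 in males, with 6 to 9 and 0 to 1 when a liver was left out; the male call was lost without female replicate 4 or male replicate 4. The list summed to 993.8 to 1295 CPM in females and 808.4 to 941.6 CPM in males, and no listed marker was at 0. Clec4f, the defining Kupffer cell lectin, ran from 196 to 254 CPM (median 213) in females and 145 to 182 CPM (median 173) in males (0.38 ± 0.08, adjusted p = 0.00181). C1qa (102 and 71.7 CPM, 0.44 ± 0.07), C1qb (0.38), Csf1r (0.45) and Adgre1 (0.47) were higher in every female than in any male. Antigen presentation genes were higher in females for 3 of 18 (5 without female replicate 2 or 6) and in males for 0, a share near the 11.1% of all genes, among them Psmb8, an immunoproteasome subunit (0.69). Of 24 interferon response genes 2 were higher in females, with Bst2 at 187 and 76.6 CPM (1.24 ± 0.10), and 4 in males (7 without female replicate 1 and 8 without male replicate 1). Both directions together made 25% of the list, near the 21.2% of all genes. The part of the macrophage markers in these immune genes was not tested.

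Of 19 stellate cell and collagen markers 0 were higher in females and 1 in males (2 without female replicate 2 or 4, or male replicate 2 or 3), at 595.6 to 1049 CPM summed in females and 692.1 to 962.6 CPM in males. That gene was Loxl1, a cross-linking enzyme (-1.35 ± 0.30). Endothelial markers summed to 644.3 to 948.8 CPM and 714.8 to 830.8 CPM, and 12 of 14 did not pass. Eng, the TGF-beta coreceptor endoglin, was slightly higher in males (-0.30 ± 0.07). Lymphocyte markers summed to 70.6 to 99.3 CPM in females and 57.9 to 69.9 CPM in males, and Cd22, a B cell receptor, was 1 of 2 higher in females among 7 (1 without female replicate 4 or male replicate 5), at 9.73 and 6.20 CPM (0.66 ± 0.17). Of 15 hepatocyte markers 3 were higher in females (1 to 2 with a liver left out) and 2 in males (4 without female replicate 1). In all 33.3% were called, where 21.2% of all genes were. The list overlapped in sum, at 174649 to 216594 CPM in females and 183089 to 199788 CPM in males. Alb, albumin, the most abundant gene in every sham liver, did not pass (-0.01 ± 0.10, adjusted p = 0.975). Genes of pericentral hepatocytes were higher in females for 4 of 20 and in males for 5 (3 without female replicate 5 or male replicate 1), and periportal genes for 3 and 5 of 18.

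Chaperones and stress genes differed in opposite directions. Of 16 heat shock proteins and chaperonins 10 were higher in females and 1 in males (median 0.35), among them Hspa8 (1123 and 686 CPM, 0.73 ± 0.14) and Hspe1 (0.41). Of 24 genes of ER folding and the integrated stress response 11 were higher in males and 3 in females. Xbp1, a factor of the unfolded protein response, ran from 123 to 217 CPM (median 177) in females and 327 to 724 CPM (median 578) in males (-1.68 ± 0.20, adjusted p = 3.67e-05), and Phgdh, of serine synthesis, stood at 1.79 and 9.40 CPM (-2.35 ± 0.34). Of 83 ribosomal proteins 17 were slightly higher in females and 0 in males (median 0.17, and 11 without male replicate 3 or 4). That was 20.5% of the list called in either direction, near the 21.2% of all genes. For oxidative phosphorylation, 63 of 70 subunits did not pass, for proteasome subunits 33 of 36 and for cell cycle genes 17 of 20.

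**Figure D4:**
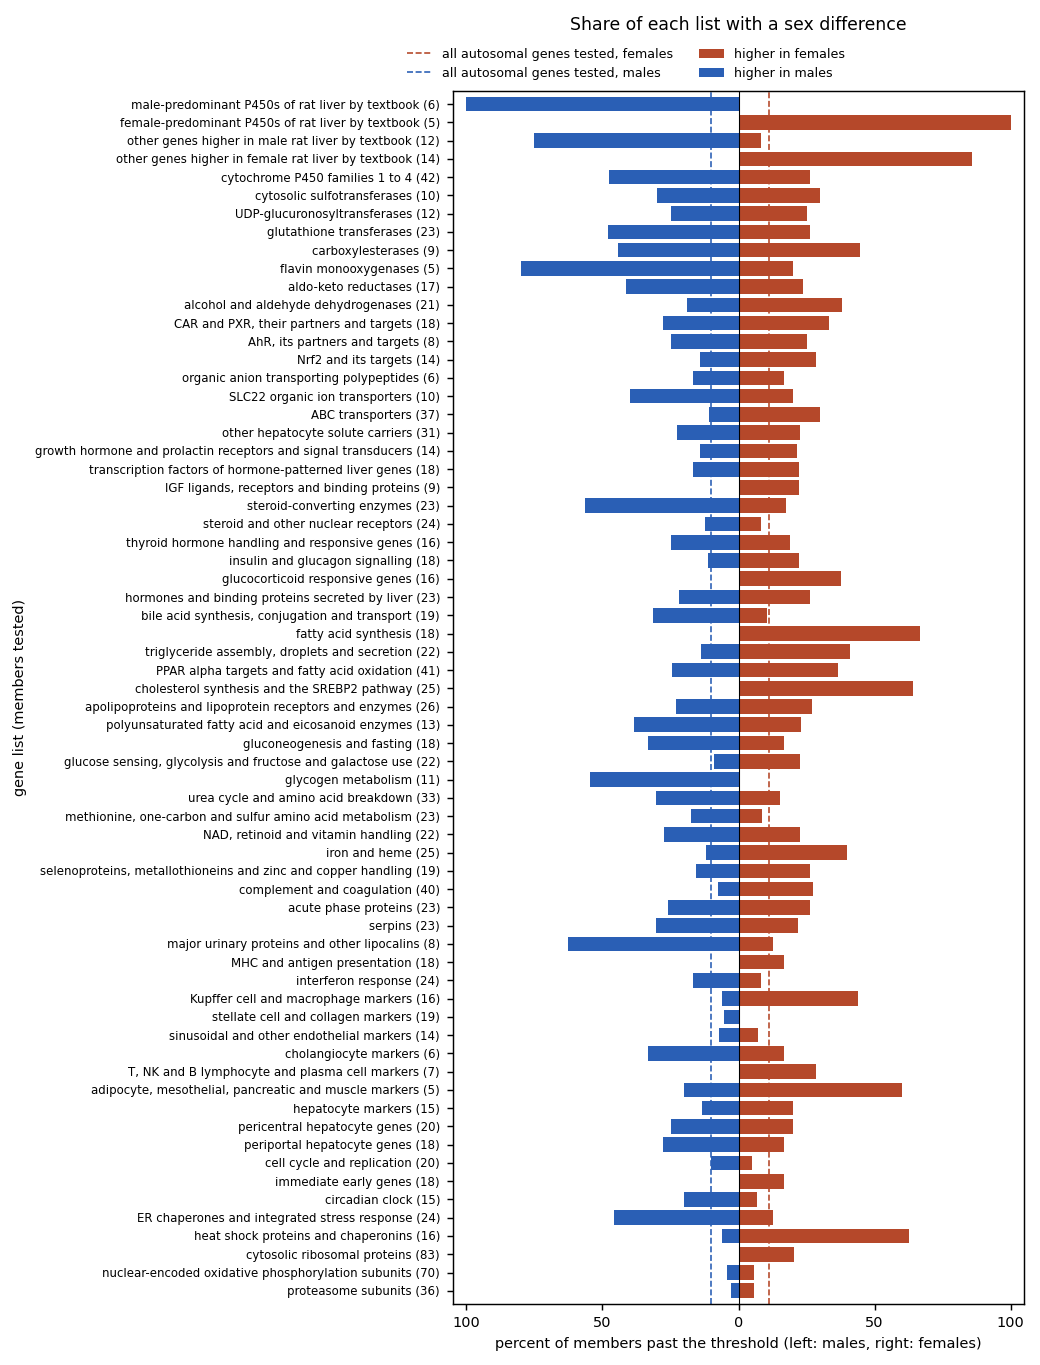
Share of the tested members of each gene list past an adjusted p of 0.05, with genes higher in females as red bars to the right and genes higher in males as blue bars to the left; the number tested is in brackets. Dashed lines mark all autosomal genes, 11.1% and 10.1%; the bars for textbook sex-patterned genes, whose members were chosen for that pattern, lie at the top.

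Some genes called in the same direction lay next to each other. In the RefSeq gene order 82 runs of at least 3 neighbouring tested genes were called in 1 direction, 35 in females and 47 in males, and of 9925 adjacent pairs 193 were both higher in females, 231 both higher in males and 196 opposite. Several runs were gene families, named here after their values were seen. Adh7, Adh1c, Adh6, Adh4 and Adh5 formed 1 run higher in females, with differences from 0.81 to 8.90. Sult2a6, Sult2a1 and Sult2a2 were followed by Selenow, a selenoprotein unlike them (63.0 and 25.0 CPM, 1.28 ± 0.13). Acot2, Acot4, Acot3 and Acot5, acyl-CoA thioesterases, were 1.13 to 2.68 higher on the log2 scale in females. Males had Gstm5, Gstm7, Gstm3, Gstm2, Gstm1 and Gstm4, from -1.79 to -0.47, then Fmo4, Fmo1 and Fmo2. They also had A2m beside Mug1 and Mug2, murinoglobulins (-0.35 and -0.46), and Ust5r, Slc22a25 and Slc22a8. Near-copies within a run can share reads, and the counting rule for such reads, and for reads on the opposite strand, is not given in the sources used here.

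The same contrast was fitted in the 12 livers exposed to PCB 52, which share no animal with the sham livers. There, 1741 of 9914 autosomal genes (17.6%) passed. Of 9833 genes tested in both, 1369 passed in both, all with the same sign, which was 65.4% of the 2092 sham calls and 79.0% of the 1732 calls after PCB 52. Of 454 sham calls of at least 2-fold, 420 also passed after PCB 52 in the same direction. Cyp2c12 differed by 7.08, Cyp2c11 by -11.28, Srd5a1 by 4.02, Cd36 by 4.44 and Fdps by 1.97, beside sham values of 6.57, -12.26, 4.00, 4.28 and 1.91. A test of the difference between the sham and the PCB 52 sex contrast called 0 of 10207 genes (0%) by edgeR, with 231 at an unadjusted p under 0.05, 0 by DESeq2 with 230 and 0 by limma-voom with 324. The gene with the smallest p, Camlg, a calcium-modulating ligand, had a sham difference of 0.30 and a PCB 52 difference of -0.27 (difference of the differences 0.58 ± 0.16, unadjusted p = 0.00109, adjusted p = 1). Aig1, a hydrolase of fatty acid esters, differed by 1.39 in sham and 0.21 after PCB 52 (1.19 ± 0.35, unadjusted p = 0.00182, adjusted p = 1). Ldhb, a lactate dehydrogenase subunit, differed by -0.14 and 1.00 (-1.14 ± 0.32, unadjusted p = 0.00128, adjusted p = 1).

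**Figure D5:**
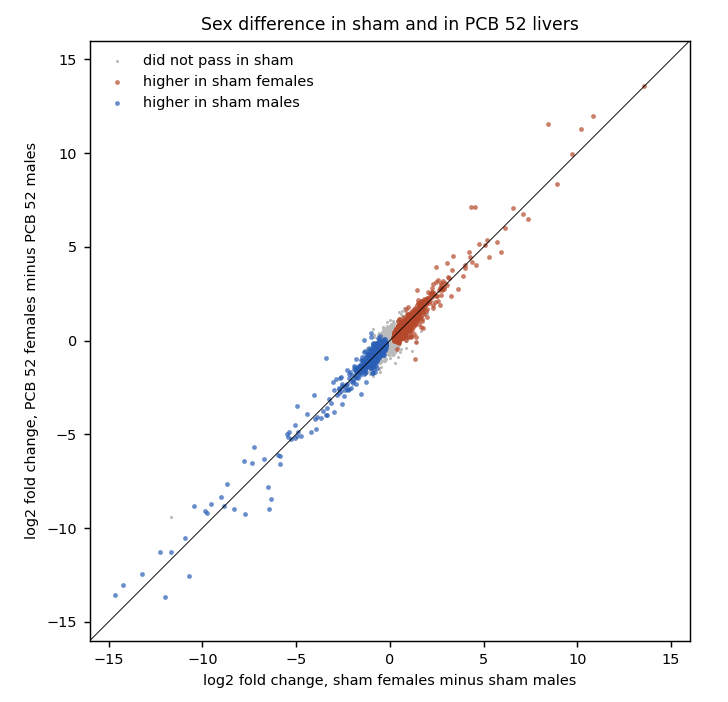
Log2 difference of females minus males in sham livers (x axis) and in livers exposed to PCB 52 (y axis) for each autosomal gene tested in both, with red and blue for genes higher in sham females and sham males and grey for the rest. The line marks equal values; 2070 of 2092 coloured genes had the same sign on both axes.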

How the data were processed

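Liver RNA of 24 rats was sequenced, and the 12 sham libraries are the subject here. The deposited tables, 1 per sex, hold raw read counts per gene ID, and the submitters' processing notes name FastQC, HISAT2 and the rn6 genome. The counter and its strand setting are not given in the sources used here. Both tables were joined by gene ID (15319 IDs, of which 15230 matched a symbol in the RefSeq table of GRCr8, 14717 of them autosomal). The 89 without a symbol held at most 2.3% of counts.

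Counts were filtered (filterByExpr, minimum 10, minimum total 15), scaled by TMM and tested with edgeR 4.0.16 (quasi-likelihood, robust) in R 4.3.3, with limma 3.58.1 and DESeq2 1.42.0 as alternatives. An adjusted p under 0.05 was called, over all genes tested, X and Y included. The standard error of a log2 difference is its size divided by the square root of F. CPM use total counts. Between replicates, counts spread more than sampling noise (chi-square per degree of freedom 7.34 to 27.6), so no library was a copy of another. Ratios of genes with 1 to 3 counts in a group have exact 95% intervals for counting error only. For genes at 0 a floor of 3 counts over the group was used. The test recovered 65 of 65 genes changed 2-fold and 49 of 64 changed 1.5-fold in simulated sham counts, where 10266 genes were tested and 7 of 10066 unchanged genes were called. Every simulated gene had the same dispersion, and the changed genes were drawn from those above a count limit. More variable genes can be missed at these folds: Socs3 was 2.10-fold higher in females and did not pass (edgeR, adjusted p = 0.135).

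Genes were named by rule: the 12 largest passing differences each way (mean at least 1 CPM, no overlap), preset markers, up to 6 members of each list by p, and the 5 smallest interaction p each way. Genes outside the rule are marked as picked with their values in view, apart from Alb, Fgf21 and further genes of the exocrine pancreas. Those are Prss1, Cela3b, Amy2a3, Pnlip, Clps and Ctrb1, which the rule did not name either. Members and lists were chosen with earlier results of these data known. List counts are set beside those of all genes, without a test of the list. Motifs were searched in the 250 bases upstream of RefSeq starts for 8200 genes. Some genes that the rule names are not reported here.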

Additional observations from a re-analysis of the deposited data

Results flagged for a closer look

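Dixon's test was run on 434 groups of 6 livers (both sexes of 217 named genes). In 45 groups the highest or lowest liver lay far from the other 5. The test's chance rate of about 1 group in 20 holds for normally distributed values. Here the test was run on CPM, where a group with counts in only 1 liver is always flagged. The number of flagged groups is therefore not set against that rate. The genes of a liver are not independent of each other.

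Some of these were single counts in a sex that otherwise had none: Ctrb1 in male replicate 2 (0.123 CPM), Sult1e1 (0.119 CPM), Nox4 (0.119 CPM) and Slc22a25 (0.119 CPM) in female replicate 3, Slc22a8 in female replicate 5 (0.126 CPM), and 2 counts of Mup4l4 in female replicate 5 (0.251 CPM).

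Traces of genes of the other sex stood out in A1bg in male replicate 6 (0.858 CPM, others up to 0.130 CPM), Akr1b7 in male replicate 3 (2.21 CPM, others up to 0.123 CPM), Cpa1 in male replicate 6 (1.14 CPM), Cux2 in male replicate 2 (6.89 CPM), Cyp2a2 in female replicate 5 (7.78 CPM), Sult1c3 in female replicate 6 (15.7 CPM), Hao2 in female replicate 1 (22.3 CPM), Elovl6 in male replicate 4 (19.1 CPM), Igfbp2 in male replicate 1 (10.2 CPM) and Gstm3 in female replicate 5 (3.89 CPM). Each of these was toward the other sex, and of these genes the sexes overlapped in Igfbp2 and Gstm3.

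Among females, replicate 5 was low in Akr1b7 (466 CPM) and Trim24 (26.9 CPM) and high in Cyp17a1 (109.6 CPM), and replicate 1 was low in Irs2 (35.3 CPM) and high in Ces2e (526 CPM). Replicate 4 was high in Krt23 (22.8 CPM), Ghr (725 CPM) and Alb (1.325e+05 CPM), replicate 2 in Tm7sf2 (349.9 CPM), and replicate 6 in Abcc3 (53.3 CPM), Ugp2 (369 CPM) and Adgre1 (47.7 CPM).

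Among males, replicate 1 was high in Cyp2c22 (1127 CPM) and Bcl6 (135 CPM) and low in Ugt1a6 (16.2 CPM), replicate 2 high in C1qb (68.2 CPM) and replicate 3 low in Ust5r (195 CPM). Replicate 4 was high in Mup5 (38.9 CPM) and Srebf1 (379.5 CPM) and low in Amacr (802 CPM) and Psmb8 (36.2 CPM). Replicate 5 was high in Sult1e1 (852 CPM) and Gsta1 (936 CPM) and low in Cat (2635 CPM) and Mug2 (704 CPM), and replicate 6 was high in Cyp17a1 (27.5 CPM), Slco1a1 (397 CPM), Mttp (261 CPM) and Acot3 (12.2 CPM).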

How the results depend on the processing

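The number of autosomal genes with a sex difference in sham livers, 2107, was 2063 to 2280 under other scalings, filters, tests and fits, and 1868 (without male replicate 4) to 2212 (without female replicate 1) with 1 liver left out. After PCB 52 the number, 1741, was 1740 to 1941 and 1525 to 1724 in the same order, and the test of the difference between the contrasts called 0 genes in every fit. Of 193 named genes with a call, 4 lost it under at least 1 of 21 alternatives. They were Slco1a1 and Cyp1a2, lost with all 24 livers in 1 fit, Thrsp, lost without female replicate 1, and Fgf21, lost in 13. Among named genes without a call, Igf1, Hsd17b2, Esr1, Camlg, Socs3 and Hamp passed under some alternatives. The sign of 5 uncalled genes depended on the setting. Bcl6 turned to 0.26 under limma-voom, to 0.22 with the replicate block and ranged from -0.48 to 0.51 with 1 liver left out. Socs2 was -0.084 and Scd -0.037 under limma-voom. With 1 liver left out, Socs2 ranged from -0.049 to 0.290, Stat5b from -0.085 to 0.073 and Alb from -0.108 to 0.039; the cause was not tested. The labels pair no female with a male. A replicate block of consecutively numbered animals gave 2204 genes, 1990 of them shared, and deviations from the group means of such pairs correlated by -0.064 to 0.231, over 0.1 in 2 of 6. Depth limits genes under about 1 CPM, where 1 count is 0.113 to 0.143 CPM.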

Other observations

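Lifr, the receptor for leukaemia inhibitory factor, was named after its values were seen. It ran from 108 to 1417 CPM (median 317) in females and 16.4 to 38.7 CPM (median 30.3) in males (4.21 ± 0.65, adjusted p = 8.71e-04, and 3.57 without female replicate 4). All females lay above all males, and the 6 females differed widely among themselves. Cyp1a2, the caffeine-oxidising P450, was higher in females (1726 and 1331 CPM, 0.36 ± 0.10, adjusted p = 0.0143), a call lost with all 24 livers in 1 fit (adjusted p = 0.0564, over alternatives from 0.00635 to 0.0564).

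Sham female replicate 5 stood apart in several of the most dimorphic genes. It had the lowest female values of Cux2 (64.5 CPM, with the other 5 at 155.9 to 259.1 CPM), Trim24 (26.9 CPM, others 113.5 to 161.2 CPM), Akr1b7 (466 CPM, others 770.5 to 877.1 CPM), Cyp3a9 (76.3 CPM), Adh6 (31.3 CPM) and Srd5a1 (828 CPM). It had the highest female values of Cyp2a2 (7.78 CPM), Cyp2c11 (2.89 CPM) and Cyp3a2 (5.14 CPM). Every one of these values was still on the female side of the gap. Its Cyp2c12 (7157 CPM) and Prlr (324.8 CPM) lay inside the range of the other females. Without this liver the number of autosomal genes with a sex difference was 1982, against 2107 with it.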
